A study of Mus musculus with 68 samples.

Results

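Cadherins and protocadherins were followed in the pharyngeal arches of mouse embryos, in RNA sequencing of hand-dissected tissue. The members were the rows of the deposited expression table whose mouse symbol was Cdh and a number or began with Pcdh, without Cdh1 and Cdh5, which gave 69 genes of the 21948 in the table. Pharyngeal arches are the segments that build the face and neck: PA1 forms the jaws, and PA2 follows it toward the tail. The 68 libraries came from both arches of wildtype embryos and of embryos labelled Hoxa2-/-, a genotype lacking a homeobox gene used in PA2, at 4 stages (E9.0, then E9.5 and E10.0, and last E10.5), all of the cross CBA/Ca/J x C57BL/10. In stage order there were 5, 5, 5 and 3 libraries of wildtype PA1, then for wildtype PA2 4, 4, 5 and 3, PA1 labelled Hoxa2-/- 4, 5, 5 and 3, and PA2 labelled Hoxa2-/- 4, 5, 5 and 3. The allele is not described further in the labels. Per the series text the replicates are biological and an embryo supplied both of its arches, which held for 33 of the 35 embryos.

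Cadherins are membrane proteins that bind the same or related cadherins on neighbouring cells in the presence of calcium. Type I cadherins such as Cdh2 (N-cadherin) and Cdh3 (P-cadherin), and type II cadherins such as Cdh6 and Cdh11, bind catenins inside the cell and so reach the actin skeleton, and changes of cadherin type accompany the departure of neural crest cells from the neural tube and their settling as arch mesenchyme. Protocadherins are weaker adhesion molecules. The delta protocadherins are single genes, whereas the Pcdha, Pcdhb and Pcdhg genes lie in clusters in which many, not all, promoters are switched on or off one by one, best known from neurons.

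Of the 69 members, 54 passed the filter on low values, a level of at least 1 CPM (reads scaled to library size) in at least 3 libraries. These were 4 of 4 type I cadherins, 7 of 11 type II cadherins, 1 of 3 other cadherins (Cdh13), 9 of 9 delta protocadherins, 2 of 3 other single protocadherins, the 1 Pcdha gene (Pcdhac2), 9 of 17 Pcdhb genes and 21 of 21 Pcdhg genes. The other 15 were Cdh7, Cdh16, Cdh18, Cdh20, Cdh22, Cdh26, Pcdh15, Pcdhb2, Pcdhb4, Pcdhb5, Pcdhb6, Pcdhb9, Pcdhb11, Pcdhb14 and Pcdhb18, whose means over all libraries ran from 0.128 CPM in Cdh16 to 0.354 CPM in Pcdhb14. A member that is high in only 1 group passes the filter through that group, so counts below are of tested members and describe them. Chromosome 18 held 42 of the 69 members, among them Cdh2 and the clustered genes, and chromosome 8 held 6, among them Cdh3, Cdh11 and Cdh13.

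Reads per library ran from 8912251 to 20619153, so that 3 reads, taken as the floor of detection, were 0.14 to 0.328 CPM. Hoxa2 itself went against the genotype label: in PA2 at E10.5 it stood at 58.3 ± 4.52 CPM (SD, n = 3) in wildtype and 132 ± 15.7 CPM (SD, n = 3) with the label Hoxa2-/-, and the label is given below as deposited. A division of the libraries also ran along the label at 3 stages: Ski was at 26.3 to 108 CPM in 24 libraries, namely the wildtype ones of every stage but E10.0, and at 9.28 to 22.8 CPM in the other 44 libraries, and Irf2bp2 was at 26.6 to 82.6 and 7.36 to 19.1 CPM. At those 3 stages the label and this division cannot be told apart. In 5 libraries the yolk sac markers summed to over 50 CPM, and in wildtype PA2 E9.0 replicate 2 the red cell markers summed to 73810 CPM, so 6 libraries are called apart below. Heart muscle markers reached 100 CPM in 11 PA2 libraries of E9.0 and E9.5.

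Levels were compared between genes per kilobase of exon, as the mean CPM over the 68 libraries. Cdh11, a type II cadherin of mesenchyme (chr8:102632095-102785642, minus strand, GRCm38), stood highest at 29.8 CPM per kb, next to Pcdh18 at 29.6 (chr3:49743296-49757325, minus strand). Cdh3 followed at 21.02 and Cdh2 at 10.7, and then came Pcdhgc3 at 4.12, Cdh6 at 4.06, Pcdh7 at 2.19, Pcdh1 at 2.02, Pcdh19 at 1.58 and Cdh19 at 1.19. The lowest tested members per length were Cdh10 at 0.0718, Cdh8 at 0.0648 and Cdh12 at 0.0609 CPM per kb. The members thus ranged from a few abundant type I, type II and delta genes to many genes near the floor. Spread between replicates differed among the abundant genes: the pooled SD of log2(CPM + 1) within groups was 0.146 for Cdh11, 0.181 for Cdh2, 0.201 for Pcdh18 and 0.219 for Cdh3. It was 0.561 for Cdh6, the widest of the members, 0.489 for Cdh19 and 0.455 for Pcdh19, against a median of 0.307 over the members and 0.207 over all genes tested. Each Pcdhg gene shared 31.5 to 73.6% of its exon length with other genes, because the cluster uses common last exons, and Pcdhac2 shared 48.6%. Pcdh7 shared 21.1% with 1 overlapping gene. How reads in shared exons were assigned is not given in the sources used here, so the levels of these genes are uncertain.

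**Figure D1:**
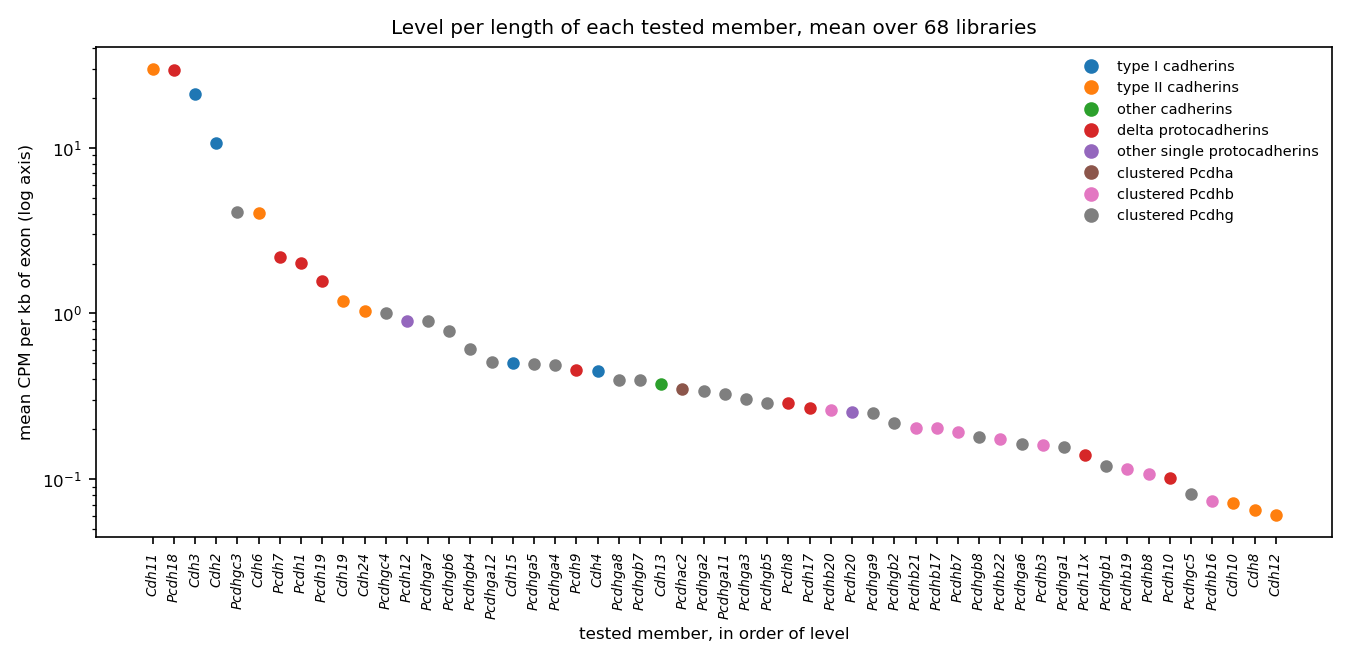
Mean CPM per kilobase of exon (log axis) over 68 libraries for each of the 54 tested members, in order of level and coloured by class. Cdh11 and Pcdh18 stand at the top at 29.8 and 29.6, and Cdh12 stands lowest at 0.0609.

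The arches were compared within each label and stage to ask which members differ between PA1 and PA2. Cdh13 (T-cadherin), a cadherin anchored by lipid and without the catenin-binding tail, was higher in PA2, with the largest difference of any member at E9.0 under both labels. In wildtype at E9.0 it stood at 0.784, 0.813, 0.923, 0.897 and 0.884 CPM in PA1 and at 12.8, 10.7, 13.7 and 15.9 CPM in PA2. In embryos labelled Hoxa2-/- it stood at 0.611, 0.861, 1.09 and 0.757 CPM in PA1 and at 15.2, 10.3, 16.6 and 13.8 CPM in PA2. The groups lay far apart under both labels. In wildtype PA2 the values then came down to 7.42, 6.12, 9.09 and 5.60 CPM at E9.5, to 4.43, 3.15, 3.60, 5.76 and 5.32 CPM at E10.0 and to 2.74, 2.74 and 3.60 CPM at E10.5. Wildtype PA1 at E10.5 had 1.85, 1.90 and 2.45 CPM, still below PA2. Wildtype E10.0 lies across the library division from the other wildtype stages, and the part of that division was not tested. The log2 difference of PA2 against PA1 in wildtype was 2.93 ± 0.183 (SE, adjusted p 3.9e-19), 2.17 ± 0.183 (4.5e-14), 1.10 ± 0.173 (4.7e-06) and 0.39 ± 0.223 (0.84) at the 4 stages. Under the label Hoxa2-/- it was 3.02 ± 0.193 (1.5e-18), 2.06 ± 0.173 (3.8e-14), 1.68 ± 0.173 (6e-11) and 0.90 ± 0.223 (0.018). Cdh13 was higher in PA2 than in PA1 of the same embryo in 33 of 33 embryos. The call at E10.5 with the label Hoxa2-/- was lost without PA1 replicate 2 (adjusted p 0.12) or 3 (0.14), and without PA2 replicate 1 (0.066) or 2 (0.12).

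Heart muscle markers had higher medians in PA2 than in PA1 at E9.0 and E9.5, with overlapping ranges. Of the 5 listed, 4 were in the table (Myh6, Myh7, Myl7 and Tnnt2), of which Myh6 and Tnnt2 were at 0 in 1 library each, and they summed to 19.9 to 699 CPM in PA2 at E9.0 and to 8.92 to 34.9 CPM in PA1. At E9.5 the sums were 7.83 to 565 CPM in PA2 and 4.02 to 99.3 CPM in PA1. In wildtype PA2 at E9.0 replicate 2 had the lowest sum, 19.9 CPM, and the lowest Cdh13. In PA2 labelled Hoxa2-/- at E9.0 replicate 3 had the lowest sum, 54.1 CPM, and the highest Cdh13. Without the 11 libraries at 100 CPM or more, the log2 difference of Cdh13 was 2.66 and 2.13 in wildtype at E9.0 and E9.5 and 3.27 and 1.82 with the label Hoxa2-/-, all past the threshold. At E9.0 that left 1 PA2 library per label, both of them among the 6 libraries apart, and the lone library is assumed to vary like the others. Markers of cranial mesoderm and muscle progenitors (5 of 5 in the table, with Myod1 at 0 in 19 libraries) were higher in PA2 at E9.0 without overlap. They summed to 36.0 to 55.6 CPM in PA1 and 72.5 to 138 CPM in PA2, and their part in the Cdh13 result was not tested. In dissected tissue, more cells of a type and more RNA per cell cannot be told apart.

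Cdh2, which links to the actin skeleton through catenins, was higher in PA2 at E9.5 and E10.0. At E9.5 wildtype PA1 had 58.6, 83.8, 70.0, 80.2 and 64.7 CPM and PA2 had 97.4, 106, 123 and 117 CPM, with no overlap. At E10.0 PA1 had 67.5, 57.4, 52.6, 72.5 and 60.5 CPM and PA2 had 99.4, 108, 88.3, 104.9 and 89.3 CPM, again with no overlap. The log2 difference was 0.63 ± 0.119 (adjusted p 8.7e-05) and 0.65 ± 0.113 (3e-05). In the embryos labelled Hoxa2-/- it was 0.71 ± 0.113 (5e-06) at E9.5 and 0.62 ± 0.113 (0.00012) at E10.0. At E10.5 the labels gave different calls: 0.11 ± 0.145 in wildtype (adjusted p 1) and 0.66 ± 0.145 with the label Hoxa2-/- (0.0047), where PA1 had 65.1, 65.1 and 68.4 CPM and PA2 had 117, 92.8 and 106 CPM. That last call was lost without PA2 replicate 1 (log2 difference 0.58, adjusted p 0.069), and the test of the difference between the labels is given below. Without the libraries rich in heart muscle markers the E9.5 difference was 0.52 in wildtype and 0.67 with the label Hoxa2-/-, both past the threshold. The markers of cranial mesoderm and muscle progenitors were higher in PA2 as well, without overlap, at 16.8 to 56.8 and 57.5 to 123 CPM in PA1 and PA2 at E9.5 and at 13.1 to 27.9 and 44.7 to 67.9 CPM at E10.0. Neuron markers (6 of the 7 listed in the table, with Neurog2 at 0 in 25 libraries) summed to 4.82 to 12.2 and 8.98 to 33.7 CPM at E9.5 and to 4.32 to 8.18 and 8.34 to 28.1 CPM at E10.0. The part of these cells in the Cdh2 result was not tested.

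Pcdh7, a delta protocadherin, was lower in PA2 at the later stages. In wildtype at E10.0 PA1 had 24.7, 24.4, 23.8, 23.9 and 24.3 CPM and PA2 had 17.2, 12.2, 6.66, 15.6 and 17.8 CPM. At E10.5 PA1 had 22.9, 23.0 and 23.3 CPM and PA2 had 8.17, 9.80 and 7.54 CPM. The arches did not overlap at either stage, and PA1 was narrow while PA2 was lower. The log2 difference was -0.83 ± 0.237 (adjusted p 0.021) and -1.35 ± 0.306 (0.0052). Without wildtype PA2 replicate 3, 1 of the libraries apart, the E10.0 difference was -0.61 and no longer passed (0.12). The differences of -0.56 ± 0.237 (0.19) and -0.89 ± 0.306 (0.18) with the label Hoxa2-/- did not pass, although Pcdh7 was lower in PA2 than in PA1 of the same embryo in 10 of 10 embryos at E10.0 and 6 of 6 at E10.5 over both labels. Markers of arch ectomesenchyme (8 of 8 in the table, none at 0 in any library) were also lower in PA2 at these stages. Their sums were 789 to 1092 CPM in PA1 and 508 to 740 CPM in PA2 at E10.0, and 817 to 1022 and 560 to 744 CPM at E10.5. Neither stage had an overlap, and the markers' part in the result was not tested.

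Cdh11 and Pcdh18, the members highest per length, were lower in PA2 at E9.0. In wildtype Cdh11 had 338, 317, 339, 340 and 317 CPM in PA1 and 218, 180, 235 and 205 CPM in PA2. Pcdh18 had 198, 183, 206, 210 and 167 CPM in PA1 and 96.2, 88.0, 111 and 103 CPM in PA2. Neither gene's groups overlapped. The log2 difference of Cdh11 was -0.66 ± 0.0961 (adjusted p 5.4e-07) in wildtype and -0.71 ± 0.101 (3.5e-07) with the label Hoxa2-/-. For Pcdh18 it was -0.95 ± 0.131 (2e-07) and -1.01 ± 0.139 (1.7e-07). All 8 embryos of E9.0 with both arches had both genes lower in PA2. The lowest library was replicate 3 of PA2 labelled Hoxa2-/-, at 131 CPM of Cdh11 and 65.0 CPM of Pcdh18, in which yolk sac markers summed to 421 CPM. Without the 6 libraries apart the differences with that label were -0.55 for Cdh11 and -0.79 for Pcdh18 and still passed. From E9.5 on neither gene passed in any arch comparison. The ectomesenchyme markers had a lower median sum in PA2 at E9.0, with overlapping ranges of 476 to 644 CPM in PA1 and 342 to 515 CPM in PA2. These sums were lower in PA2 at E10.0 and E10.5 as well, where neither gene passed. The part of the markers in the result was not tested.

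**Figure D2:**
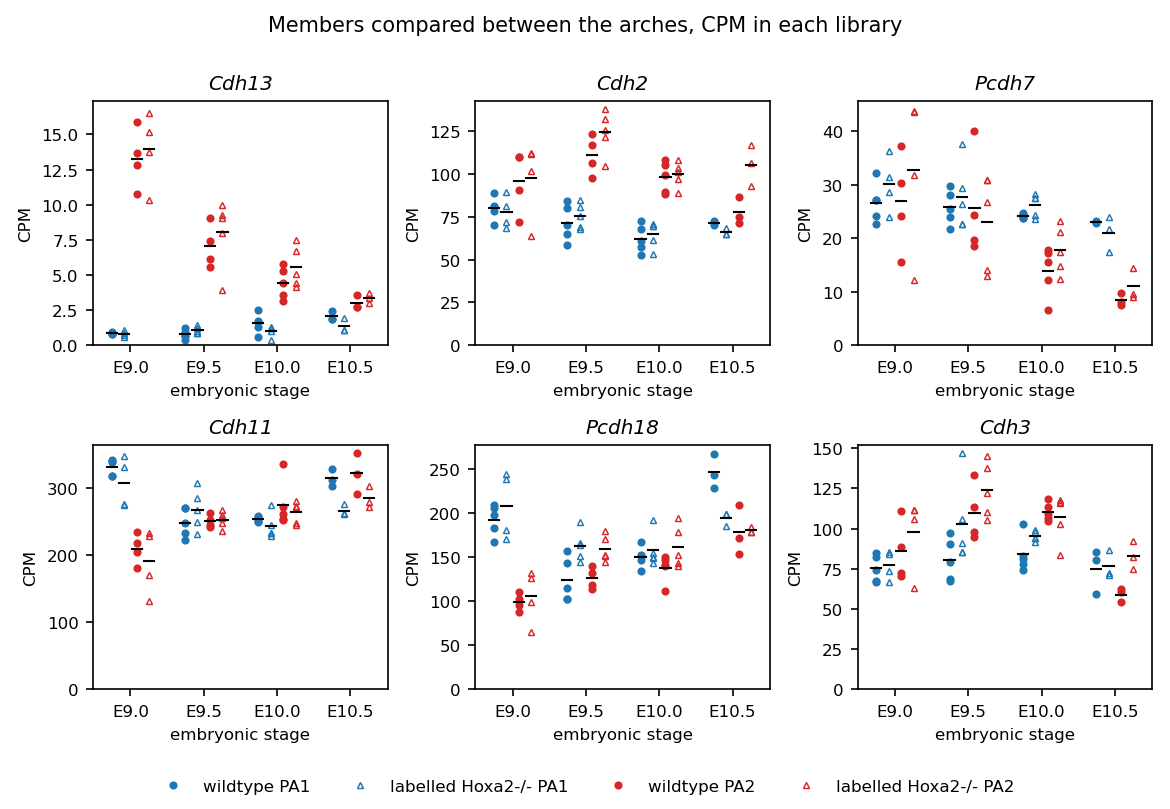
CPM of Cdh13, Cdh2, Pcdh7, Cdh11, Pcdh18 and Cdh3 in each library by stage, with PA1 in blue and PA2 in red, wildtype as filled circles, libraries labelled Hoxa2-/- as open triangles and group means as black bars. Cdh13 in PA2 comes down from 10.3 to 16.6 at E9.0 to 2.74 to 3.76 at E10.5, and Pcdh7 in wildtype PA2 ends at 7.54 to 9.80.

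Among the less abundant members, Cdh8, a type II cadherin known from brain, was higher in PA2 in 4 comparisons. In wildtype at E9.0 it had 0.157, 0.163, 0.256, 0.069 and 0.294 CPM in PA1 and 1.24, 0.695, 1.05 and 1.14 CPM in PA2 (log2 difference 0.77 ± 0.154, adjusted p 0.00019). Its PA1 values lay near the floor of 3 reads. It also passed in wildtype at E10.0 (0.74 ± 0.145, 0.00029) and with the label Hoxa2-/- at E9.0 (0.51 ± 0.163, 0.017) and E9.5 (0.50 ± 0.145, 0.019). Pcdh19, a delta protocadherin whose human gene is known for an epilepsy, was lower in wildtype PA2 at E9.0, with 9.61, 11.2, 6.46, 7.25 and 7.02 CPM in PA1 and 3.24, 4.06, 3.59 and 5.95 CPM in PA2. The groups did not overlap, and the log2 difference was -0.84 ± 0.302 (adjusted p 0.042). At E9.5 it was -0.93 ± 0.302 (0.017). The Pcdh19 calls rested on few libraries. The E9.0 call was lost when wildtype PA1 replicate 1 or 2 or PA2 replicate 1, 2 or 4 was left out (adjusted p 0.077 to 0.11), without the 6 libraries apart (0.057), without those rich in heart muscle markers (0.24) and with a pseudocount of 5 (0.093). The E9.5 call was lost without PA1 replicate 4 (0.053) or PA2 replicate 2 (0.066) or 3 (0.069). The Pcdh19 differences of -0.82 (0.051) and -0.75 (0.085) with the label Hoxa2-/- did not pass.

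In the wildtype E9.0 comparison 6 of 54 tested members passed, 2 higher and 4 lower in PA2, where 18.7% of all 18428 genes passed (10.2% higher, 8.53% lower). The E9.5 comparison gave 15 members, 13 higher and 2 lower, against 26.3% of all genes (12.7% and 13.7%). There were 5 at E10.0, 4 higher and 1 lower, against 5.94% (4.51% and 1.43%), and Pcdh7 alone at E10.5, against 1.52% (0.868% and 0.651%). Among embryos labelled Hoxa2-/- 5 members passed at E9.0, 2 higher and 3 lower, against 24.6% of all genes (12.1% and 12.5%). At E9.5 there were 7, each of them higher, against 9.58% (6.12% and 3.47%). Cdh13 and Cdh2 were the 2 members at E10.0, against 4.23% (3.13% and 1.1%), and again at E10.5, against 1.37% (0.982% and 0.385%). As shares of 54 these counts were 11.1%, 27.8%, 9.26% and 1.85% in wildtype and 9.26%, 13%, 3.7% and 3.7% with the label Hoxa2-/-, above the background by more than 2 percentage points in wildtype at E10.0 and with the label Hoxa2-/- at E9.5 and E10.5. The E9.5 wildtype count also held Cdh3, Cdh4, Cdh19, Pcdh1, Pcdh8, Pcdh20, Pcdhb21 and 4 Pcdhg genes as higher and Pcdh17 as lower. Without the libraries rich in heart muscle markers that count was 6: Cdh3 went from 0.44 to 0.27 (adjusted p 0.3), Cdh4 from 0.72 to 0.27 (0.55) and Pcdhgc3 to 0.44 (0.32), while Pcdh1 (0.024) and Pcdh8 (0.01) still passed. The median log2 difference over the members in the fit with all libraries was 0.26, with 43 of 54 above 0, against 0.0056 over all genes. Of the 54, 21 were Pcdhg genes that share exons with one another, so the members are not separate measurements. The wildtype E9.5 count fell to 8 without wildtype PA2 replicate 3 and to 9 without PA2 replicate 5, PA1 replicate 1 or PA1 replicate 3. The wildtype E10.0 count fell to 3 without PA2 replicate 3. Under the label Hoxa2-/- the E9.0 count was 9 without PA1 replicate 1 or PA2 replicate 3 and 8 without PA2 replicate 1, and the E10.5 count was 0 without PA2 replicate 1 and 1 without PA2 replicate 2 or PA1 replicate 2 or 3. With the embryo as a replicate block the counts for embryos labelled Hoxa2-/- became 11 at the earliest stage (5 up, 6 down in PA2) and 12 at the next (11 and 1).

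Stages were compared as E10.5 against E9.0 within each arch and label. The delta protocadherins Pcdh10, Pcdh19, Pcdh9, Pcdh17 and Pcdh11x and the clustered gene Pcdhac2 rose in all 4 of these comparisons. Pcdh10 rose most among the members in wildtype, and Pcdh19 most with the label Hoxa2-/-. In wildtype PA1 Pcdh10 had 0.314, 0.380, 0.974, 0.483 and 0.491 CPM at E9.0 and 5.83, 9.49 and 6.09 CPM at E10.5. In wildtype PA2 it had 0.154, 0.267, 0 and 0.487 CPM at E9.0 and 8.33, 14.5 and 11.4 CPM at E10.5. The gene thus went from near the floor to well above it. The log2 change was 2.40 ± 0.247 in wildtype PA1 (adjusted p 1.1e-11) and 3.32 ± 0.258 in PA2 (1.7e-15), and 1.44 ± 0.258 (1.4e-05) and 1.92 ± 0.258 (3.5e-08) with the label Hoxa2-/-.

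Pcdh19 was already high at E10.0. In wildtype PA2 it had 3.24, 4.06, 3.59 and 5.95 CPM at E9.0, then 29.5, 18.6, 16.4, 14.7 and 16.7 CPM at E10.0 and 21.8, 25.2 and 23.3 CPM at E10.5. The E9.0 libraries lay below all later ones shown. In wildtype the steps to and from E10.0 cross the library division, whose part was not tested. Its log2 changes were 1.33 ± 0.328 (adjusted p 0.00078) and 2.25 ± 0.343 (3.9e-07) in wildtype PA1 and PA2, and 1.59 ± 0.343 (0.00024) and 2.78 ± 0.343 (4.2e-09) with the label Hoxa2-/-. Pcdh9, in wildtype PA2, had 0.824, 0.321, 0.772 and 0.812 CPM at E9.0 and 13.3, 18.0 and 7.71 CPM at E10.5 (3.00 ± 0.286, 1.2e-12). Pcdh17, a delta protocadherin studied in axon growth, had 1.39, 2.19, 0.883 and 1.082 CPM and then 6.72, 9.11 and 6.38 CPM in the same groups (1.83 ± 0.246, 2.2e-08). Neither gene's values overlapped between these stages. Over the 4 comparisons the changes of Pcdh9 ran from 1.21 to 3.00, of Pcdh17 from 1.34 to 1.94, of Pcdh11x from 0.99 to 1.62 and of Pcdhac2 from 1.25 to 1.94. No alternative that was run took any of these calls away. Neuron markers summed to 6.62 to 12.1 CPM in PA1 at E9.0 and 6.14 to 17.0 CPM at E10.5, and to 10.4 to 46.3 and 8.20 to 24.9 CPM in PA2, so that their ranges overlapped between the stages. The ectomesenchyme marker sums, given above for E9.0, stood at 817 to 1022 CPM in PA1 and 560 to 744 CPM in PA2 at E10.5, above the E9.0 range in each arch, and their part in the result was not tested.

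The promoters of 3 genes that rose together and of Cdh6, which fell, are printed here as examples of members whose levels moved over the stages. Other members that moved are not printed. Each is the 250 bases before the gene's start in RefSeq (GRCm38.p6), read 5′ to 3′ on the gene's strand, with CG dinucleotides in capitals.
Pcdh10, chr3:45378148-45378397, plus strand: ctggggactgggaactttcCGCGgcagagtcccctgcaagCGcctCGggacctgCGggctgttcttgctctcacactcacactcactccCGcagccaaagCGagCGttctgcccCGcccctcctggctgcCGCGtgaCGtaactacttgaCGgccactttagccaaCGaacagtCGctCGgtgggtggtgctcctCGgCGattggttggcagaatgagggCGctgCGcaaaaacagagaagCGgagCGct
Pcdh17, chr14:84443313-84443562, plus strand: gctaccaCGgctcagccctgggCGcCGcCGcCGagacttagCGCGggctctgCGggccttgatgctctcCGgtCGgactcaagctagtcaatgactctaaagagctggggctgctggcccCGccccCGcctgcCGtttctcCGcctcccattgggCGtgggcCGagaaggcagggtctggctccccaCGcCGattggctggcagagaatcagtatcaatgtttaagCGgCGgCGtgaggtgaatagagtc
Pcdh19, chrX:133688994-133689243, minus strand: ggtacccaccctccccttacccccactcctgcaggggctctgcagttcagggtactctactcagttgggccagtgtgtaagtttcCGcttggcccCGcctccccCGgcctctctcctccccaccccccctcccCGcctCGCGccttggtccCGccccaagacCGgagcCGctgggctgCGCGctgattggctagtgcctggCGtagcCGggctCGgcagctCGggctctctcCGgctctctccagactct
Cdh6, chr15:13173676-13173925, minus strand: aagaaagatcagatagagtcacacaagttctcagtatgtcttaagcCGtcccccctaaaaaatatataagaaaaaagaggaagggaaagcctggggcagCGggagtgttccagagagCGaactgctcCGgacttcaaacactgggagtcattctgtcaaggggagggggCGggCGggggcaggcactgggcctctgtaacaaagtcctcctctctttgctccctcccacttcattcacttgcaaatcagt

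Counting capitals gave 22 CG dinucleotides for Pcdh10, 21 for Pcdh17, 16 for Pcdh19 and 6 for Cdh6, where the median over all 32851 promoters of this length in the RefSeq table was 6 and the upper quartile 16. GC content was 63.2%, 64.8%, 69.2% and 51.2%, against a median of 52.4%. On both strands 3 words were searched, TGACAG (the core bound by MEIS proteins), CAGGTG (an E-box) and TAATTA (a homeodomain core), which occurred in 15.9%, 17.2% and 4.8% of all promoters. Pcdh10, Pcdh17 and Pcdh19 held none of them, and Cdh6 held 1 TGACAG core, whose leftmost base lies at -98 on the gene's strand. Over the 20 members off chromosome 18 with a promoter in the table, 16 of 23 promoters held none of the 3. The printed promoters do not stand for all members. Pcdh9, which also rose, had 18 CG dinucleotides and none of the words. Cdh15, which rose in 3 comparisons, had 5 and held 2 TGACAG cores. Cdh24, which passed in no stage comparison, had 22 and none of the words.

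**Figure D3:**
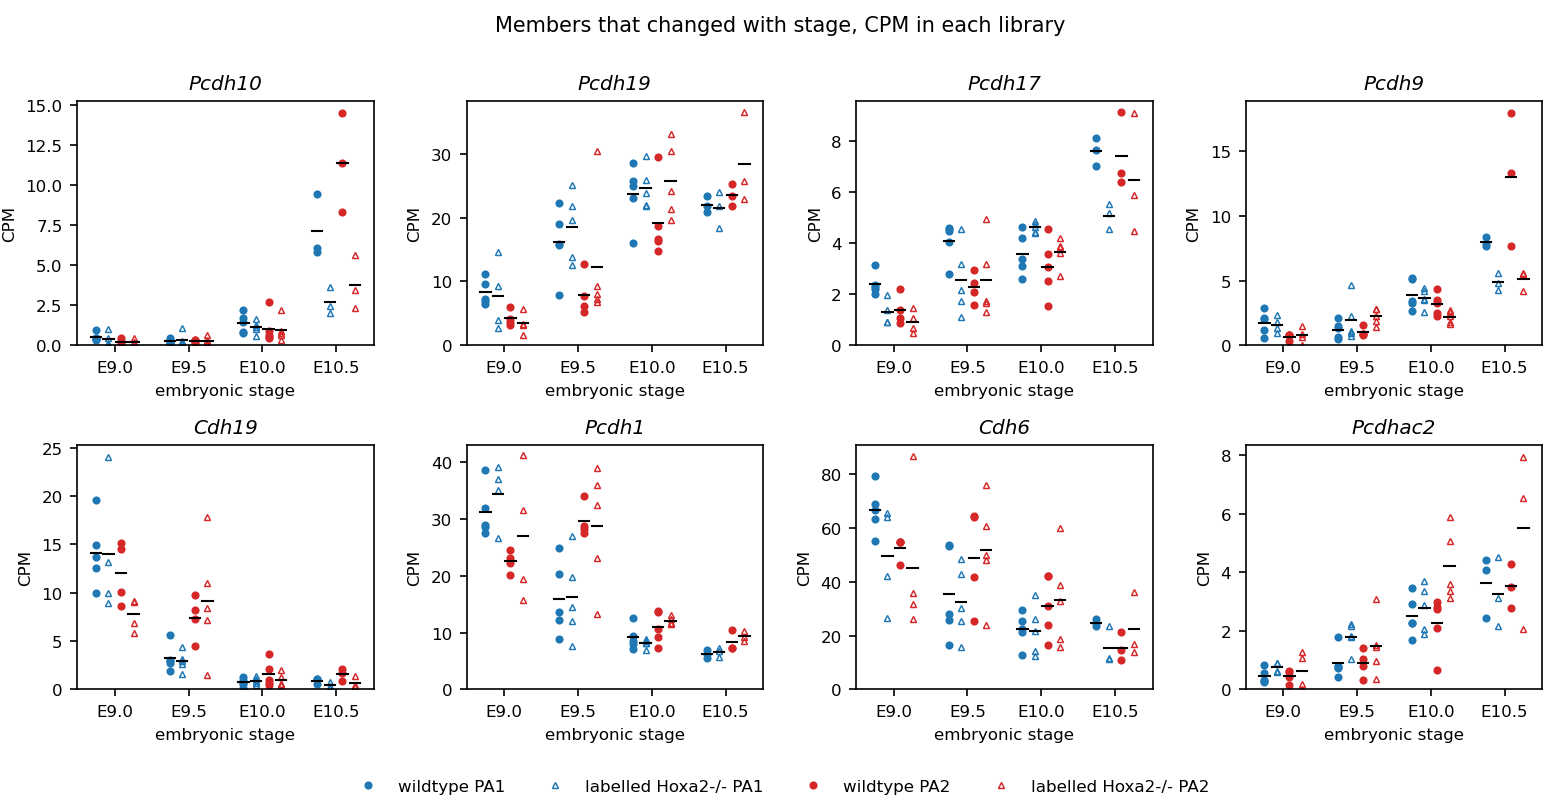
CPM of Pcdh10, Pcdh19, Pcdh17, Pcdh9, Cdh19, Pcdh1, Cdh6 and Pcdhac2 in each library by stage, with PA1 in blue and PA2 in red, wildtype as filled circles, libraries labelled Hoxa2-/- as open triangles and group means as black bars. Pcdh10 in wildtype stays at or under 2.72 until E10.0 and stands at 5.83 to 14.5 at E10.5, while Cdh19 in wildtype comes down from 8.65 to 19.6 at E9.0 to 0.545 to 2.16 at E10.5. Wildtype E10.0 lies across the library division from the other wildtype stages.

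Cdh19, a type II cadherin known from migrating neural crest and Schwann cell precursors, fell most. In wildtype PA1 it had 9.93, 12.5, 14.9, 13.7 and 19.6 CPM at E9.0, then 3.07, 2.91, 5.67, 2.73 and 1.96 CPM at E9.5 and 0.545, 1.05 and 1.09 CPM at E10.5. In wildtype PA2 it had 8.65, 10.1, 14.5 and 15.2 CPM at E9.0, 7.28, 8.19, 9.75 and 4.46 CPM at E9.5 and 0.879, 1.74 and 2.16 CPM at E10.5. PA1 had thus come down by E9.5 while PA2 still held more. The log2 change was -2.98 ± 0.357 (adjusted p 7.8e-10) in wildtype PA1 and -2.34 ± 0.373 (1.1e-06) in PA2, and -3.31 ± 0.373 (4.9e-10) and -2.41 ± 0.373 (8.1e-07) with the label Hoxa2-/-. At E9.5 Cdh19 was higher in PA2 than in PA1 under both labels (0.99 ± 0.328, adjusted p 0.02, and 1.13 ± 0.309, 0.011). Those 2 arch calls were lost without the libraries rich in heart muscle markers (1.09, adjusted p 0.11, and 0.83, 0.37). In wildtype the call was also lost without PA1 replicate 5 (0.051) or PA2 replicate 3 (0.088), and with the label Hoxa2-/- without PA2 replicate 1 (0.078). Markers of migrating neural crest and glia (4 of the 5 listed in the table, with Foxd3 at 0 in 26 libraries and Sox10 in 6) summed to 55.8 to 147 CPM in PA1 at E9.0, 18.3 to 55.0 CPM at E9.5 and 15.3 to 22.7 CPM at E10.5. In PA2 the sums were 68.4 to 131, 33.7 to 114 and 19.4 to 28.8 CPM. These sums moved with Cdh19, and their part in the result was not tested.

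Pcdh1, a delta protocadherin of epithelia and vessels, fell in all 4 comparisons as well. Wildtype PA1 had 28.6, 32.0, 29.1, 27.6 and 38.7 CPM at E9.0 and 6.21, 5.48 and 6.87 CPM at E10.5, a log2 change of -2.16 ± 0.26 (adjusted p 8.9e-10). Wildtype PA2 had 24.6, 23.1, 22.3 and 20.2 CPM and then 7.29, 7.27 and 10.48 CPM, a change of -1.35 ± 0.272 (6.7e-05). In embryos labelled Hoxa2-/- the changes were -2.22 ± 0.272 and -1.34 ± 0.272, and that of PA2 did not pass without the libraries rich in heart muscle markers (-0.69, adjusted p 0.16). At E9.5 Pcdh1 was also higher in PA2, in wildtype (0.93 ± 0.239, adjusted p 0.0029) and with the label Hoxa2-/- (0.81 ± 0.225, 0.013). The latter call was lost without PA1 replicate 4 (0.098), PA2 replicate 2 (0.067) or PA2 replicate 3 (0.054), and without the libraries rich in heart muscle markers (0.49). Epithelial markers (7 of 7 in the table, none at 0) summed to 750 to 1121 CPM in PA1 at E9.0 and 475 to 574 CPM at E10.5. In PA2 they summed to 714 to 1356 and 392 to 493 CPM. Endothelial markers (7 of 7, none at 0) summed to 259 to 326 and 150 to 174 CPM in PA1, whereas in PA2 the ranges of 154 to 447 and 160 to 245 CPM overlapped between the stages. The part of these sums in the Pcdh1 result was not tested.

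Cdh6, a type II cadherin of the neural folds and early crest, fell in 3 of the 4 comparisons. Wildtype PA1 had 63.3, 79.2, 68.6, 55.0 and 66.5 CPM at E9.0 and 23.4, 24.8 and 26.1 CPM at E10.5 (log2 change -1.38 ± 0.397, adjusted p 0.0037). Wildtype PA2 had 54.7, 54.8, 54.6 and 46.2 CPM and then 10.9, 14.5 and 21.2 CPM (-1.74 ± 0.415, 0.00067). The stages did not overlap in either arch. Under the label Hoxa2-/- PA1 fell (-1.61 ± 0.415, 0.002), whereas PA2 gave -0.94 ± 0.415 (0.079), with 35.6, 26.1, 31.7 and 86.8 CPM at E9.0 and 16.8, 13.9 and 36.2 CPM at E10.5, which overlapped.

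Some members changed over the stages mainly in PA2. Pcdh7 came down from 37.2, 15.7, 30.4 and 24.2 CPM in wildtype PA2 at E9.0 to 8.17, 9.80 and 7.54 CPM at E10.5 (log2 change -1.50 ± 0.286, adjusted p 3e-05), with -1.37 ± 0.286 (0.00015) for the label Hoxa2-/-. In PA1 its changes were -0.19 ± 0.273 (0.6) and -0.49 ± 0.286 (0.19). Without the libraries rich in heart muscle markers, which left 1 PA2 library of E9.0 per label, the change in PA2 was -0.82 (adjusted p 0.031) in wildtype and -0.17 (0.69) with the label Hoxa2-/-. The call with that label thus depended on those libraries. Cdh13 fell in PA2 by 1.82 ± 0.209 (3.1e-10) and 1.76 ± 0.209 (1.4e-09) on the log2 scale and rose in wildtype PA1 by 0.72 ± 0.199 (0.0028). Cdh11 rose in PA2 by 0.62 ± 0.109 (7.8e-06) and 0.61 ± 0.109 (1.3e-05) and passed in neither PA1 comparison (-0.07 and -0.20). Pcdh18 rose in PA2 by 0.83 ± 0.15 (1.1e-05) and 0.82 ± 0.15 (2e-05). In wildtype PA1 it rose by 0.36 ± 0.143 (0.039), a call lost without any 1 of E9.0 replicates 2 and 5 or E10.5 replicates 1 and 2 (0.066 to 0.16).

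The difference between the arches in this stage change was then tested itself, a comparison added after these values were seen. It passed for 3 of 54 members in wildtype, 1 higher and 2 lower, where 3.35% of all genes passed (1.13% and 2.21%). It passed for 4 with the label Hoxa2-/-, 3 higher and 1 lower, where 7.33% did (4.07% and 3.26%). The change of Cdh13 was lower in PA2 than in PA1, by -2.54 ± 0.289 (adjusted p 6.6e-09) in wildtype and -2.12 ± 0.295 (1.7e-06) with the label Hoxa2-/-. Cdh11 went the other way, by 0.69 ± 0.151 (0.0032) and 0.81 ± 0.155 (0.00055). In wildtype Pcdh20, a little-studied protocadherin, passed at -1.51 ± 0.427 (0.029). Among embryos labelled Hoxa2-/- Pcdh18 passed at 0.90 ± 0.212 (0.0054) and Pcdhgc3 at 1.07 ± 0.346 (0.046). The Pcdhgc3 call was lost when any 1 of 12 of the 14 libraries compared was left out, at adjusted p from 0.052 to 0.13. It was also lost with no filter (0.052), median-of-ratios scaling (0.053), edgeR (0.099) and only the compared groups in the fit (0.13), and without the 6 libraries apart (0.89, adjusted p 0.1). Pcdh7, at -1.30 ± 0.396 in wildtype (adjusted p 0.05) and -0.88 ± 0.404 (0.17), did not pass. With the embryo as a replicate block the wildtype count was 6, and without wildtype PA2 E9.0 replicate 2 it was 5.

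Over the stages 30 of 54 tested members passed in wildtype PA1 (25 higher, 5 lower at E10.5), where 42.5% of all genes passed, 21% higher and 21.5% lower. In wildtype PA2 26 passed (20 and 6), against 36.9% (17.5% and 19.4%), in PA1 labelled Hoxa2-/- 20 (16 and 4), against 31.2% (14.8% and 16.5%), and in PA2 labelled Hoxa2-/- 19 (15 and 4), against 30.9% (15.8% and 15.1%). The median log2 change over the members was 0.42, 0.34, 0.14 and 0.29 in these comparisons, against 0.0024, -0.015, -0.017 and 0.012 over all genes. These medians count the 21 Pcdhg genes, which share exons, as separate genes. Type I and type II cadherins were mixed, with 1 higher and 2 lower of 7 type II genes in wildtype PA1. Among type I genes Cdh15 (M-cadherin), known from muscle precursors, rose in 3 comparisons, from 0.836, 0.705, 0.871, 0.759 and 0.638 CPM to 3.43, 5.91 and 4.01 CPM in wildtype PA1 (1.60 ± 0.241, adjusted p 2e-07). Beside it the listed markers of cranial mesoderm and muscle progenitors came down in sum from 36.0 to 55.6 CPM at E9.0 to 11.2 to 23.2 CPM at E10.5 in PA1 and from 72.5 to 138 CPM to 40.0 to 53.3 CPM in PA2. Myod1, 1 of these 5 markers and at 0 in 19 libraries, had a mean in wildtype PA1 of 0.188 CPM, near the floor, and then 1.25 CPM. Single values of the other listed markers are not given here, and the part of these cells in the Cdh15 result was not tested. Cdh2 passed in none of the 4 comparisons and Cdh3 passed in wildtype PA2 alone, with 88.7, 70.5, 111 and 72.7 CPM at E9.0 and 62.4, 54.3 and 60.3 CPM at E10.5 (-0.51 ± 0.162, adjusted p 0.01). That call was lost without PA2 E9.0 replicate 4 (0.072) or PA2 E10.5 replicate 2 (0.058), and without the libraries rich in heart muscle markers (0.38).

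Of the clustered genes, the Pcdhb genes rose when summed. All 9 tested passed as higher in wildtype PA1 and 6 of 9 in wildtype PA2. With the label Hoxa2-/- 7 passed in PA1 and 5 in PA2. The background of genes called higher was 21% and 17.5% for the wildtype arches, then 14.8% and 15.8% with the label. Median log2 changes of the tested Pcdhb genes were 0.89, 0.73, 0.69 and 0.54. The filter keeps a gene that is high at late stages alone, so these counts and medians describe the 9 tested, not all 17 Pcdhb genes. Each was low: the Pcdhb genes together, all 17 summed, came in stage order to 3.46 ± 0.473 CPM (SD, n = 5), 3.82 ± 0.914 (n = 5), 9.55 ± 1.10 (n = 5) and 16.5 ± 0.42 (n = 3) for wildtype PA1. In wildtype PA2 the sums were 4.61 ± 0.805 (n = 4), 6.77 ± 1.57 (n = 4), 11.6 ± 1.55 (n = 5) and 15.8 ± 0.893 CPM (n = 3). The libraries of E10.0 and E10.5 lay above all libraries of E9.0 and E9.5 in both wildtype arches, where the step from E9.5 to E10.0 also crosses the library division, whose part was not tested. With the label Hoxa2-/-, where it does not, the ranges of E9.5 and E10.0 overlapped, at 3.10 to 7.44 and 6.80 to 9.99 CPM in PA1 and 4.69 to 12.4 and 8.98 to 13.8 CPM in PA2. The E9.0 and E10.5 ranges with that label did not overlap, at 2.90 to 4.88 and 11.1 to 15.6 CPM in PA1 and 5.49 to 6.99 and 10.6 to 15.9 CPM in PA2. Of the 21 Pcdhg genes 4 passed as higher and 2 as lower in wildtype PA1, 4 and 0 in wildtype PA2, 3 and 1 in PA1 labelled Hoxa2-/- and 1 and 0 in PA2 labelled Hoxa2-/-. Their sum was 69.6 ± 5.12 CPM (SD, n = 5) in wildtype PA1 at E9.0 and 72.9 ± 4.02 (n = 3) at E10.5, and 57.3 ± 7.31 (n = 4) and 73.8 ± 12.4 (n = 3) in wildtype PA2. With the label Hoxa2-/- it was 68.04 ± 4.20 (n = 4) and 60.9 ± 8.17 (n = 3) in PA1 and 53.8 ± 20.2 (n = 4) and 67.5 ± 3.01 CPM (n = 3) in PA2. The ranges of E9.0 and E10.5 overlapped in each of these 4. The most abundant of them, Pcdhgc3, was lower in PA2 at E9.0 under both labels (-0.67 ± 0.215, adjusted p 0.02, and -0.88 ± 0.226, 0.0027). In wildtype that call was lost without PA2 replicate 2 (0.082) or 5 (0.051). Pcdhac2, with 0.575, 0.325, 0.256, 0.276 and 0.835 CPM in wildtype PA1 at E9.0 and 2.45, 4.06 and 4.42 CPM at E10.5, rose by 1.67 ± 0.283 (2.7e-06).

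**Figure D4:**
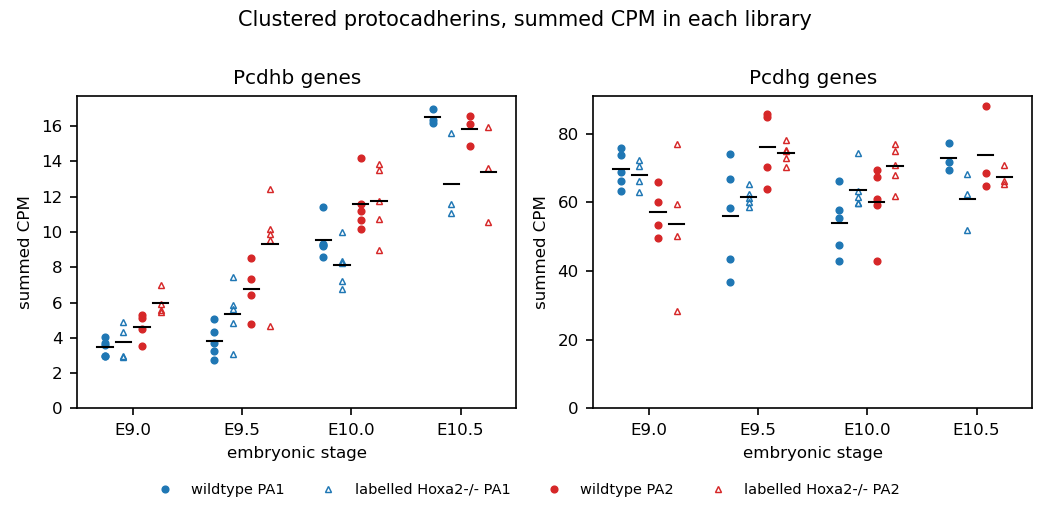
Summed CPM of the 17 Pcdhb genes (left) and the 21 Pcdhg genes (right) in each library by stage, with colours and markers for arch and label as in the legend and group means as black bars. The Pcdhb sum in wildtype PA1 goes from a mean of 3.46 at E9.0 to 16.5 at E10.5, while the Pcdhg sum is at 69.6 and 72.9.

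The label Hoxa2-/- was compared with wildtype within each arch and stage. At E10.0, the stage at which both labels lie on the same side of the library division, no member passed in PA2 or PA1, where 0.0814% (0.0163% higher, 0.0651% lower) and 0% of all genes passed in the limma fit. At an unadjusted p under 0.05 there were 4 members in PA2 and 1 in PA1, where 7.71% and 2.3% of all genes had such a p, and edgeR called 0 members in each. No member passed at E9.0 in PA2, where 14% of all genes passed (6.59% higher, 7.44% lower), and edgeR called 0. There 3 members had an unadjusted p under 0.05, against 27.6% of all genes. In PA1 at E9.0 no member passed either, against 2.08% of all genes (0.83% and 1.25%), edgeR called 0, and 4 had an unadjusted p under 0.05, against 14.2%. Nor did any pass in PA2 at E9.5, against 4.48% (1.73% and 2.75%), where edgeR called 0 and 7 had an unadjusted p under 0.05, against 18.4%. In PA1 at E9.5 3 members passed, against 23.6% of all genes (11.4% higher, 12.2% lower): Pcdh18 at 0.41 ± 0.124 (adjusted p 0.013) and Pcdhb21 at 0.50 ± 0.192 (0.048) were higher with the label, and Pcdh17 at -0.58 ± 0.204 (0.03) was lower. The Pcdh17 call was lost without any 1 of wildtype replicates 2 to 5 or of replicates 1 to 3 labelled Hoxa2-/- (0.051 to 0.15), and the Pcdh18 call without wildtype replicate 1 (0.061) or 4 (0.056). The count there was 0 without wildtype replicate 4, 1 without replicate 3 and 5 without replicate 2.

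At E10.5 Pcdh10 and Pcdh9 were lower and Cdh2 higher in PA2 with the label Hoxa2-/-, 3 members against 10.3% of all genes (6.48% higher, 3.85% lower). Pcdh10 had 8.33, 14.5 and 11.4 CPM in wildtype PA2 and 5.64, 3.44 and 2.31 CPM with the label (-1.40 ± 0.276, adjusted p 0.00038), with no overlap. Pcdh9 had 13.3, 18.0 and 7.71 CPM in wildtype and 5.57, 5.52 and 4.21 CPM with the label (-1.14 ± 0.305, 0.0098). Its call was lost without wildtype replicate 2 (0.11) or replicate 3 labelled Hoxa2-/- (0.059), and with a pseudocount of 0.25 (0.074). Cdh2 had 71.0, 86.7 and 74.95 CPM in wildtype and 117, 92.8 and 106 CPM with the label (0.43 ± 0.145, 0.043), a call lost without wildtype replicate 1 (0.17) or 3 (0.11) or without replicate 1 (0.19) or 3 (0.11) labelled Hoxa2-/-. In PA1 at E10.5 Pcdh10 alone passed, against 3.05% of all genes (1.5% and 1.55%), with 5.83, 9.49 and 6.09 CPM in wildtype and 3.67, 2.48 and 2.00 CPM with the label (-1.13 ± 0.276, 0.013). The PA1 call was lost without wildtype replicate 2 (0.12) or replicate 2 (0.068) or 3 (0.10) with the label, and edgeR did not make it (0.14). A pseudocount of 0.25 took that call away as well (0.15). Leaving out replicate 1 with the label gave 2 members. Neuron markers moved with Pcdh10 and Pcdh9 at E10.5, with sums of 19.4 to 24.9 CPM in wildtype PA2 and 8.20 to 13.1 CPM with the label, and of 11.03 to 17.0 and 6.14 to 9.09 CPM in PA1. In PA2 the ectomesenchyme markers (560 to 593 and 692 to 744 CPM), endothelial markers (160 to 177 and 196 to 245 CPM) and neural progenitor markers (3.66 to 4.91 and 5.76 to 7.08 CPM, 3 of 4 in the table, with Sox3 at 0 in 22 libraries) were higher with the label, and in PA1 those of cranial mesoderm and muscle progenitors were lower (17.1 to 23.2 and 11.2 to 15.0 CPM). None of these ranges overlapped, and their part in the results was not tested. These stages are among those at which label and library division cannot be told apart.

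The label's effect was not shown to differ between the arches for any member. The test of that difference passed for 0 members at every stage, by limma and by edgeR, where 0%, 0.0109%, 0.0163% and 0.038% of all genes passed, and 0, 4, 3 and 2 members had an unadjusted p under 0.05, against 5.88%, 4.42%, 1.53% and 3.27% of all genes. This is also the test of whether the arch difference differs between the labels, so the differing calls of Cdh2 and Pcdh7 between wildtype and the label Hoxa2-/- were not shown to differ.

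**Figure D5:**
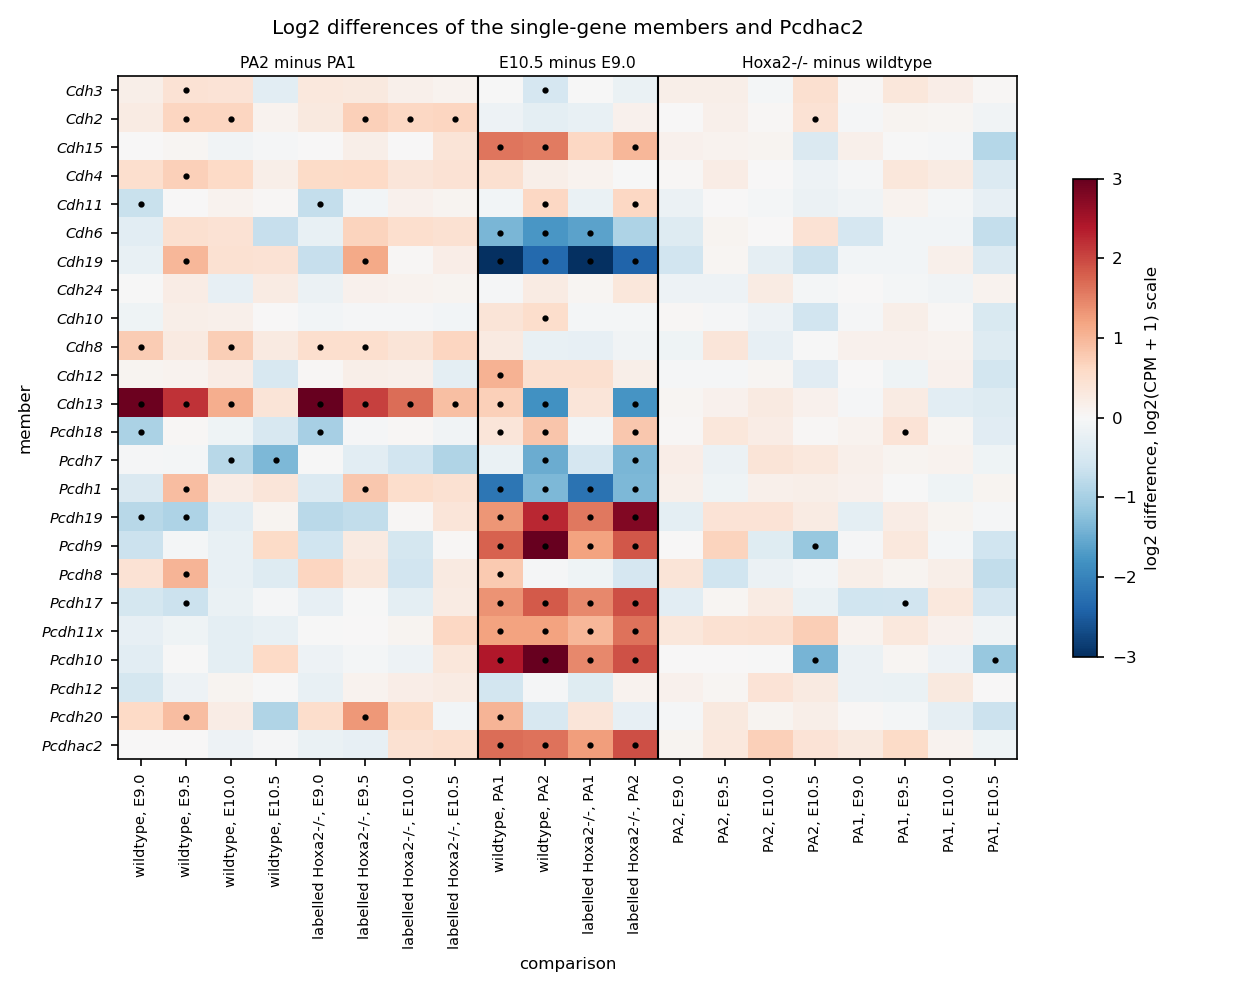
Log2 differences on the log2(CPM + 1) scale of the tested single-gene members and Pcdhac2 for PA2 against PA1, E10.5 against E9.0 and Hoxa2-/- against wildtype. Red is higher and blue lower, colours end at 3 and -3, and black dots mark an adjusted p under 0.05: Cdh13 carries 7 of 8 dots in the arch comparisons, and the delta protocadherins Pcdh19, Pcdh9, Pcdh17, Pcdh11x and Pcdh10 carry a dot in all 4 stage comparisons.

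Genes of the same adhesion systems were read from fixed lists. Among 12 catenins and catenin partners, 7 were higher and 1 lower in wildtype PA2 at E9.5, against 26.3% of all genes. That was the arch comparison with the most members called higher. With the label Hoxa2-/- the counts at E9.5 were 3 and 1, against 9.58%. Heart muscle markers reached 100 CPM in 2 of the 4 wildtype PA2 libraries of E9.5 and in 3 of the 5 labelled Hoxa2-/-. The catenins were not tested without those libraries. In wildtype at E9.5 the values were as follows. Ctnna2 (alpha-N-catenin) was at 0.84 ± 0.214 (adjusted p 0.0029), Jup (plakoglobin) at 0.82 ± 0.165 (0.00023) and Ctnnal1, the lower one, at -0.36 ± 0.119 (0.019). Ctnnb1 (beta-catenin), which joins classical cadherins to alpha-catenin, passed in no comparison, with group means of 680 to 852 CPM. From E9.0 to E10.5 Pkp4 and Afdn (afadin) fell in all 4 comparisons, Pkp4 by 0.51 to 0.81 and Afdn by 0.40 to 0.67 on the log2 scale. Of the 9 tested giant cadherins and their modifier, 3 rose and 0 fell in wildtype PA1, 4 and 2 in wildtype PA2, and 2 and 1 and then 2 and 0 with the label Hoxa2-/-, where 42.5%, 36.9%, 31.2% and 30.9% of all genes passed in these comparisons. Among them the receptor and ligand pair Fat4 and Dchs1 rose in all 4 comparisons, Fat4 by 1.62 to 2.31 and Dchs1 by 0.96 to 1.31. Of 6 regulators of clustered promoters 1 rose and 2 fell in wildtype PA1, 0 and 1 in wildtype PA2, and 1 and 2 and then 3 and 1 with the label Hoxa2-/-, against the same shares. Dnmt3b, a DNA methyltransferase that acts on the clustered genes, fell in all 4. It fell by 1.51 and 1.17 in wildtype PA1 and PA2 and by 1.22 and 0.87 with the label Hoxa2-/-. In these comparisons 21.5%, 19.4%, 16.5% and 15.1% of all genes passed as lower. A link of Dnmt3b to the Pcdhb sum was not tested. Ctcf, which loops the clustered promoters to enhancers, fell in wildtype PA1 (-0.27 ± 0.0831, adjusted p 0.0063) and rose in PA2 labelled Hoxa2-/- (0.25 ± 0.0869, 0.022).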

How the data were processed

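RNA of hand-dissected, frozen arches was extracted with TRIzol and a Zymo Direct-zol kit and made into libraries from polyadenylated RNA with SMART-seq v4 and Nextera XT, per the labels' protocols. The submitters' processing notes name mm10, bcl2fastq 2.18, TopHat2 2.1.1 and R 3.3.2. The counting program, its strand setting and its treatment of shared exons are not given in the sources used here. The authors deposited a table of CPM-like signal values, whose column totals ran from 926298 to 1051959. Dividing each by the value of 1 read gave whole reads for 100% of values (within 0.1 read), so edgeR could be run on recovered reads. The tests had been laid out for CPM and suited these values without change. Symbols came from GENCODE M21 for 21921 of 21948 genes.

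Genes at 1 CPM or more in at least 3 libraries (18428) were tested on log2(CPM + 1) with limma 3.58.1 (R 4.3.3). The fit had 16 group means over 68 libraries and a prior variance that follows the mean, tests were two-sided, and p-values were adjusted by Benjamini and Hochberg over every tested gene at a threshold of 0.05. P-values in the report are these unless stated. Log2 differences on this scale understate changes of low genes. The members and gene lists were chosen with earlier results of these data known. Named genes were 11 fixed ones, up to 6 in each direction with the largest mean difference in the arch or the stage comparisons among those called at least 2 times with a group mean of at least 2 CPM, and up to 4 per direction for the label. Cdh8, Cdh15, Pcdh20, Pcdhb21 and the named partner genes were chosen after their values were seen. PA1 and PA2 of 1 number deviated together (median correlation 0.347 over 33 pairs, 30 of them over 0.1, against -0.124 for other numbers), as the series text on embryos has it. Replicate pairs differed by more than counting noise (chi-square per degree of freedom 5.84 to 95.9). Alternatives were pseudocounts of 0.25 and 5, no filter, median-of-ratios scaling (DESeq2 1.42.0), only the compared groups, edgeR 4.0.16, the embryo as a block, and each library left out, and, added later, leaving out the 6 libraries apart or those rich in heart muscle markers. The pipeline was tested on simulated data.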

Additional observations from a re-analysis of the deposited data

Results flagged for a closer look

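Each of 18 named genes was checked in each group of 4 or 5 libraries, which made 216 pairs of gene and group. In 16 pairs a library lay far from the rest of its group, where chance alone gives about 1 in 20 pairs, or 10.8 here. Pairs of the same group share its libraries and are not independent. Each value below is the CPM of that library, with the range of the others.

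In wildtype PA2 at E10.0, Cdh11 was high in replicate 2 (336, others 252 to 271), Pcdh10 (2.72, others 0.469 to 0.874) and Pcdh19 (29.5, others 14.7 to 18.6) were high in replicate 1, and replicate 3, in which yolk sac markers summed to 103 CPM, was high for Cdh4 (5.68, others 3.26 to 3.74) and low for Pcdh18 (112, others 141 to 151). In wildtype PA2 at E9.0, Cdh6 was low in replicate 5 (46.2, others 54.6 to 54.8) and Pcdh9 in replicate 2 (0.321, others 0.772 to 0.824), the library rich in red cell markers. At E9.5 Pcdh9 was high in wildtype PA2 replicate 2 (1.57, others 0.84 to 0.914) and Pcdhac2 in wildtype PA1 replicate 5 (1.8, others 0.416 to 0.798). Wildtype PA1 replicate 3 of E9.0 was high for Pcdh10 (0.974, others 0.314 to 0.491).

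Among libraries labelled Hoxa2-/-, PA2 at E9.0 had Cdh3 low in replicate 3 (63.3, others 106 to 112), where yolk sac markers summed to 421 CPM, and Cdh6 high in replicate 4 (86.8, others 26.1 to 35.6). In PA1 Pcdh10 was high in replicate 4 of E9.5 (1.11, others 0.066 to 0.282) and Pcdh18 in replicate 3 of E10.0 (193, others 144 to 155). In PA2 Pcdh19 was high in replicate 4 of E9.5 (30.4, others 6.83 to 9.21) and Pcdh10 in replicate 2 of E10.0 (2.2, others 0.368 to 0.884).

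Change between the earliest and the last stage differed between PA2 and PA1 in the limma test of that difference, on the log2 scale, for Cdh13 (-2.54 in wildtype and -2.12 with the label Hoxa2-/-), Cdh11 (0.689 and 0.808), Pcdh20 in wildtype (-1.51), and Pcdh18 (0.899) and Pcdhgc3 (1.07) with the label Hoxa2-/-. The adjusted p-values and the libraries on which the Pcdhgc3 call rests stand with the stage comparisons above.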

How the results depend on the processing

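Counts of members called came to 208 under the alternatives, leaving aside single libraries left out, and 33 of them were more than 1.5 times away from the reported count. A pseudocount of 0.25 gave 8 for the arches at E9.0 under the label Hoxa2-/- and 0 for the label in PA1 at E10.5. A pseudocount of 5 gave 2 for the wildtype arches and 1 for those labelled Hoxa2-/- at E10.5, 6 and 3 for the label in PA2 and PA1 at E10.5, and 5 for the stage change between the arches in wildtype. With no filter the label in PA2 at E9.5 gave 1. Only the compared groups in the fit gave 11 for the wildtype arches at E9.0, 3, 4 and 6 for the arches labelled Hoxa2-/- at the 3 stages up to E10.0, 11 for the stages in PA2 with that label, 5 for the label in PA2 and 3 in PA1 at E10.5, 0 in PA1 at E9.5, and 7 and 1 for the stage change between the arches in wildtype and under the label. With edgeR the label in PA1 at E10.5 gave 0 and the stage change between the arches in wildtype 5. The replicate block (embryo) gave 11 and 12 for the arches labelled Hoxa2-/- at E9.0 and E9.5 and 6 for the stage change between the arches in wildtype. It took away 1 of 92 calls of named genes, Pcdhgc3 over the stages in wildtype PA1 (-0.565, adjusted p 0.051), and changed no other. Without the 6 libraries apart the arches labelled Hoxa2-/- gave 9 at E9.0 and 4 at E10.0, the label in PA2 at E9.0 gave 1, and the stage change between the arches in wildtype 5. Without the libraries rich in heart muscle markers the wildtype arches gave 6 at E9.5, those labelled Hoxa2-/- 15 at E9.0 and 3 at E9.5, the label in PA2 at E9.0 gave 4, its difference between the arches at E9.0 gave 1, and the stage change between the arches under the label gave 12. The last 2 alternatives and the stage change between the arches were chosen after seeing the data. The cause of these shifts was not tested, beyond the fewer libraries in the fits that leave some out.

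With single libraries left out, counts ran from 8 to 17 for the wildtype arches at E9.5 and from 3 to 6 at E10.0, from 5 to 9 and from 0 to 3 for the arches labelled Hoxa2-/- at E9.0 and E10.5, from 0 to 1 for the label in PA2 at E9.0 (1 without replicate 1 or 3 labelled Hoxa2-/-), from 0 to 5 and from 0 to 2 for the label in PA1 at E9.5 and E10.5, and from 2 to 5 for the stage change between the arches in wildtype. Of the 92 calls of named genes, none reversed under any alternative, and 2 were lost with each other pseudocount, 3 with no filter, 1 with median-of-ratios scaling, 12 with only the compared groups, 4 with edgeR, 3 of 59 without the libraries apart, 10 of 55 without those rich in heart muscle markers, and 87 of 761 with single libraries left out. Calls of genes outside the rule (Cdh8, Cdh15, Pcdh20 and the partner genes) were not run through the alternatives one by one. Median-of-ratios scaling moved the median of all genes by at most 0.0222 in any comparison. Depth limits Cdh8, Pcdh10 and the Pcdhb genes at E9.0, whose values lie near the floor of 3 reads, and groups of 3 libraries limit E10.5.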
